A study of Mus musculus with 4 samples.

Results

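The E proteins and the Id proteins that inhibit them were followed in double-positive (DP) T-lineage cells, the immature thymocytes that carry both the CD4 and the CD8 co-receptor. All probe sets whose platform gene symbol is Tcf3, Tcf4, Tcf12, Id1, Id2 or Id3 were taken, which gave 19 of 45037 probe sets and 6 of 18193 genes. Tcf12 had 5 probe sets, Tcf4 had 6, Tcf3 and Id2 had 3 each, and Id1 and Id3 had 1 each. The Entrez numbers of these probe sets belong to the E protein genes, also known as E2A (Tcf3), E2-2 (Tcf4) and HEB (Tcf12), and not to the TCF/LEF factors that once shared some of these symbols. Gene expression had been measured on Affymetrix Mouse 430 2.0 arrays in mice with a Notch1-driven leukaemia of T cells (T-ALL). The first group was 2 arrays of DP cells from normal thymus (genotype label WT), and the second was 2 arrays of DP cells from thymoma in the periphery with over-expression of Notch1-IC, the active intracellular part of the Notch1 receptor (genotype label T-ALL). Both groups have the genetic background label WT C57/BLACK6. The promoter that drives Notch1-IC, the age and the sex of the mice, and whether animals were pooled are not stated in the labels.

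E proteins are basic helix-loop-helix transcription factors that bind DNA at the E-box, CANNTG, as homodimers or as heterodimers with each other. In the thymus, E2A and HEB hold thymocytes at developmental checkpoints and drive recombination and pre-T-cell receptor genes. Id proteins have the helix-loop-helix but lack the basic DNA-binding region, so an E protein bound to an Id protein cannot bind DNA. Id3 is known to be induced by T-cell receptor signals through Egr factors, and Id2 is known from innate lymphoid, natural killer and dendritic cells.

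The DNA just upstream of the gene is shown for Id2 and Id3, which moved in opposite directions on the most intense probe set of each. It is also shown for the first and the innermost of the 3 starts that RefSeq lists for Tcf12, whose probe sets disagreed. Each run is the 250 bases before the start, 5′ to 3′ on the strand of the gene, from RefSeq with build GRCm38.p6. Capitals mark each CANNTG, which reads the same on both strands.
Id2, chr12:25096093-25096342, minus strand: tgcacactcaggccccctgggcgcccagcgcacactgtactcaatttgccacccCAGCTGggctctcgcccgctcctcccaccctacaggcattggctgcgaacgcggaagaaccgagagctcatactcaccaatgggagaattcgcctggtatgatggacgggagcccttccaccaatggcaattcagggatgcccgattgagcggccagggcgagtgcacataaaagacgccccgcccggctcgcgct
Id3, chr4:136143572-136143821, plus strand: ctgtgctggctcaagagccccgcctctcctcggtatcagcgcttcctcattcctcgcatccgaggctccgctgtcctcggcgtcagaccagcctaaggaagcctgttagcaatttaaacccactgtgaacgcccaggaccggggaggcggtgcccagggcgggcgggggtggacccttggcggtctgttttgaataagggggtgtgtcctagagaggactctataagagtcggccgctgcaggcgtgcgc
Tcf12 first start, chr9:72111820-72112069, minus strand: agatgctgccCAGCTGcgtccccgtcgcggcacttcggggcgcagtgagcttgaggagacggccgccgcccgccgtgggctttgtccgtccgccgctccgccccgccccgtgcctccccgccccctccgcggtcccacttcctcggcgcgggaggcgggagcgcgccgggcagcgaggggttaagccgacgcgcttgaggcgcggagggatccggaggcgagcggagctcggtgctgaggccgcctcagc
Tcf12 innermost start, chr9:71896097-71896346, minus strand: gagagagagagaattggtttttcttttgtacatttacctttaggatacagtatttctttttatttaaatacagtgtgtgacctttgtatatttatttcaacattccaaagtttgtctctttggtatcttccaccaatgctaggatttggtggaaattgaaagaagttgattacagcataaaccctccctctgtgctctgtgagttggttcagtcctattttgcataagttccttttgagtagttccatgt
The Id2 window held 1 CANNTG, 196 bases upstream of the start and in the form CAGCTG, and the window of the first Tcf12 start held 1, also CAGCTG, 240 bases upstream. The Id3 window and the innermost Tcf12 window held 0. Of 32851 windows of the same length, 66.22% held CANNTG, 13.0% held CAGCTG and 17.22% held CAGGTG, the other form that E proteins often bind and itself a case of CANNTG. The core of the site for RBPJ, the DNA-binding partner of Notch1-IC, is TGGGAA. It was searched on both strands and stood in 21.59% of the windows and in 0 of these 4. A match is only a run of letters, and a window without one says nothing about binding elsewhere.

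Each Id gene differed between tumour and normal DP cells on at least 1 probe set, in unlike directions. Id2 rose on its most intense probe set by 2.55 ± 0.23 (log2 fold change ± SE, with n = 2 arrays in each group) and Id1 rose by 1.25 ± 0.27, whereas Id3 fell by 0.72 ± 0.12. Of the E proteins, Tcf4 rose on 2 probe sets, Tcf12 rose on 2 and fell on 2, and Tcf3 passed the test on 0 of 3. Differences were tested with limma, whose variance prior followed the level and limited outlying variances (trend and robust), with Benjamini-Hochberg adjustment over all 45037 probe sets and a threshold of 0.05. Of the 19 member probe sets, 6 rose and 3 fell, and the background is that 22.8% of all probe sets passed in either direction, 11.3% higher and 11.5% lower. Of the members, 18 lay above background on all 4 arrays, and 45.5% of all probe sets that did so passed, so 9 calls are close to the share at such levels. The groups did not overlap on 14 of the 19, against 56.7% of all probe sets and 76.7% of those above background on all 4 arrays. The median log2 fold change was 0.26 over the 19 member probe sets and -0.02 over all probe sets. With limma's default prior, which takes 1 prior variance for all levels, 0 of 45037 probe sets passed, with 11337 at an unadjusted p below 0.05, of them 6 of the 19 members, against 25.2% of all probe sets. With 1 probe set for each gene and the trend and robust prior, 5 of the 6 members passed, against 29.7% of all genes. These 6 probe sets lay above background on all 4 arrays, and the share of such genes that passed was not counted.

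The arrays of each group were close to each other, and the background of an array, its highest value among 27 bacterial control probe sets without spike, lay between 12.3 and 17.8 intensity units. The labels do not say whether replicate arrays stand for separate animals. The p-values therefore measure a spread that may be technical, and the number of arrays limits the precision. Peripheral tumour and thymus cannot be told apart from transformed and normal, and fewer cells of a type cannot be told apart from less RNA per cell. The signal of 3′ over 5′ control probe sets, a measure of RNA quality, differed between the groups, at 1.20 to 1.28 for beta-actin in the normal arrays against 2.46 to 2.53 in the tumour arrays, and at 0.897 to 0.912 against 1.84 to 1.85 for Gapdh. The bacterial spike controls BioB, BioC and BioD had a mean log2 level 0.60 higher in tumour arrays. With arrays scaled to them (spike scaling), the median of all probe sets moved from -0.02 to -0.63. Every log2 fold change between the groups is relative to a median near 0, and falls by 0.60 under that scaling, which leaves the differences within an array as they are.

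**Figure D1:**
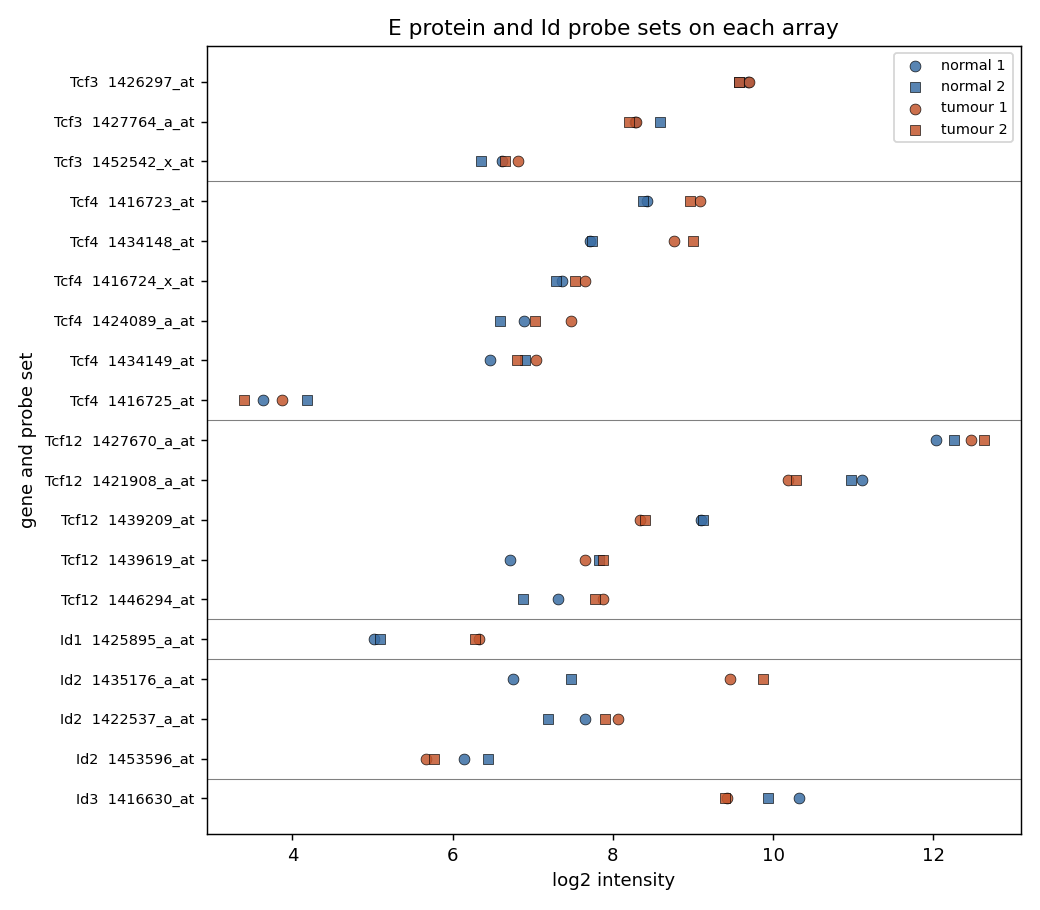
Log2 intensity (x axis) of each of the 19 probe sets of Tcf3, Tcf4, Tcf12, Id1, Id2 and Id3 (rows, most intense first within a gene) on the 2 normal (blue) and 2 tumour (orange) arrays. On 14 of the 19 rows the groups do not overlap, with the brightest Id2 probe set showing the widest gap and the brightest Tcf3 probe set nearly none.

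Tcf3, which encodes the E2A proteins E12 and E47, had intensities of 825.92 and 759.61 on the normal arrays and 830.98 and 763.0 on the tumour arrays on its most intense probe set, 1426297_at. The groups overlapped fully. The log2 difference was 0.0076 ± 0.0973 (limma adjusted p = 0.972), with a 95% interval of -0.21 to 0.23. Probe set 1427764_a_at gave 308.71 and 383.99 in normal cells against 312.18 and 293.0 in tumour cells, a difference of -0.19 ± 0.14 (limma adjusted p = 0.423). The dimmer 1452542_x_at, of a class that may bind other transcripts, gave 98.3 and 81.67 against 112.42 and 100.75. Here the tumour arrays were both above the normal ones, by 0.25 ± 0.21 (limma adjusted p = 0.476). Under spike scaling the first probe set reads -0.59 (adjusted p = 0.000822), so a lack of difference holds only relative to the median of all probe sets.

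Tcf4, the E protein E2-2 that is known to direct plasmacytoid dendritic cells, gave 342.75 and 331.35 in normal cells and 543.08 and 497.13 in tumour cells on its most intense probe set, 1416723_at. Both tumour arrays were above both normal ones. The rise was 0.62 ± 0.11 (limma adjusted p = 0.00257), a 1.54-fold difference, and it was lost under spike scaling (0.024, adjusted p = 0.906). Probe set 1434148_at showed the larger rise, from 209.23 and 214.37 to 433.87 and 510.75. This came to 1.15 ± 0.13 (limma adjusted p = 0.000147), or 2.22-fold, with no overlap. Of the other 4 probe sets, 0 passed the test, 1 of them at an unadjusted limma p of 0.0392. Of their differences, 3 were positive (0.26 ± 0.15, 0.50 ± 0.21 and 0.24 ± 0.22), and the fourth, 1416725_at, read -0.28 ± 0.66 and was above background on 1 array.

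Markers of plasmacytoid dendritic cells were set beside this rise. Of 6 measured, 1 rose (Irf8, 2.17 ± 0.30, also known from other myeloid and B cells) and 1 fell (Pacsin1, -1.14 ± 0.34). Over all genes on their most intense probe set, 16.3% rose and 11.7% fell. The Pacsin1 call ended without normal replicate 1, normal replicate 2 or tumour replicate 2 (adjusted p up to 0.304). Siglech, the marker that defines these cells best, differed by -0.34 ± 0.78 and did not pass. Its values of 18.18 and 13.48 in normal cells and 6.32 and 24.37 in tumour cells lay near background, too dim to read a difference. The summed intensity of the list was 380.33 and 386.03 in normal arrays and 528.56 and 491.27 in tumour arrays. Within these sums, Irf8 alone gave 22.6 and 38.2 in normal arrays and 137.9 and 126.71 in tumour arrays. The part of these cells in the Tcf4 values was not tested. Of 6 measured B cell markers, 0 rose and 1 fell (Cd79b, -2.42 ± 0.18), and Cd79a and Pax5 were at or below background on all 4 arrays.

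Tcf12, which encodes HEB, the partner of E2A in thymocytes, was read by 5 probe sets that did not move together. The most intense, 1427670_a_at, gave 4180.12 and 4907.6 in normal cells and 5663.03 and 6324.93 in tumour cells. Both tumour arrays were higher, and the rise was 0.40 ± 0.08 (limma adjusted p = 0.00657), or 1.32-fold. The next, 1421908_a_at, gave 2210.48 and 2006.42 against 1166.45 and 1251.57. It fell by 0.80 ± 0.08 (limma adjusted p = 8.98e-05), with both tumour arrays well below both normal ones. Probe set 1439209_at also fell, from 548.33 and 560.28 to 324.02 and 338.36, by 0.74 ± 0.11 (limma adjusted p = 0.000711). Both tumour arrays were again the lower ones.

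The other Tcf12 probe sets were dimmer and closer to the first. Probe set 1446294_at gave 159.67 and 117.73 in normal cells and 235.77 and 219.9 in tumour cells, with no overlap. Its rise was 0.73 ± 0.18 (limma adjusted p = 0.0154), and the call ended without normal replicate 2 (0.51, adjusted p = 0.113), tumour replicate 1 (0.68, adjusted p = 0.114) or tumour replicate 2 (0.78, adjusted p = 0.0803), and with spike scaling (0.13). Probe set 1439619_at gave 105.35 and 227.79 against 200.66 and 235.07. Normal replicate 1 alone was low, the groups overlapped, and the difference of 0.49 ± 0.30 did not pass (limma adjusted p = 0.322). Without normal replicate 1 it read -0.069, and without normal replicate 2 it read 1.04 (adjusted p = 0.0160).

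The split between the 2 brightest Tcf12 probe sets does not depend on how whole arrays are scaled. Within an array, the log2 intensity of 1427670_a_at minus that of 1421908_a_at was 0.92 and 1.29 in normal cells and 2.28 and 2.34 in tumour cells, a difference of 1.20. The groups did not overlap, and the smallest p that an exact permutation test of 2 against 2 arrays can give is 0.333 (two-sided). The pair was chosen after its values were seen. Where each probe set lies on the transcripts is not given in the sources used here, and the part of the 3′ to 5′ ratios or of transcript forms in this split was not tested. The rise of 1427670_a_at ended when normal replicate 1 (0.29, adjusted p = 0.0626) or tumour replicate 2 (0.32, adjusted p = 0.130) was left out, and turned to -0.20 with spike scaling, while both falls kept their call in each of these.

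**Figure D2:**
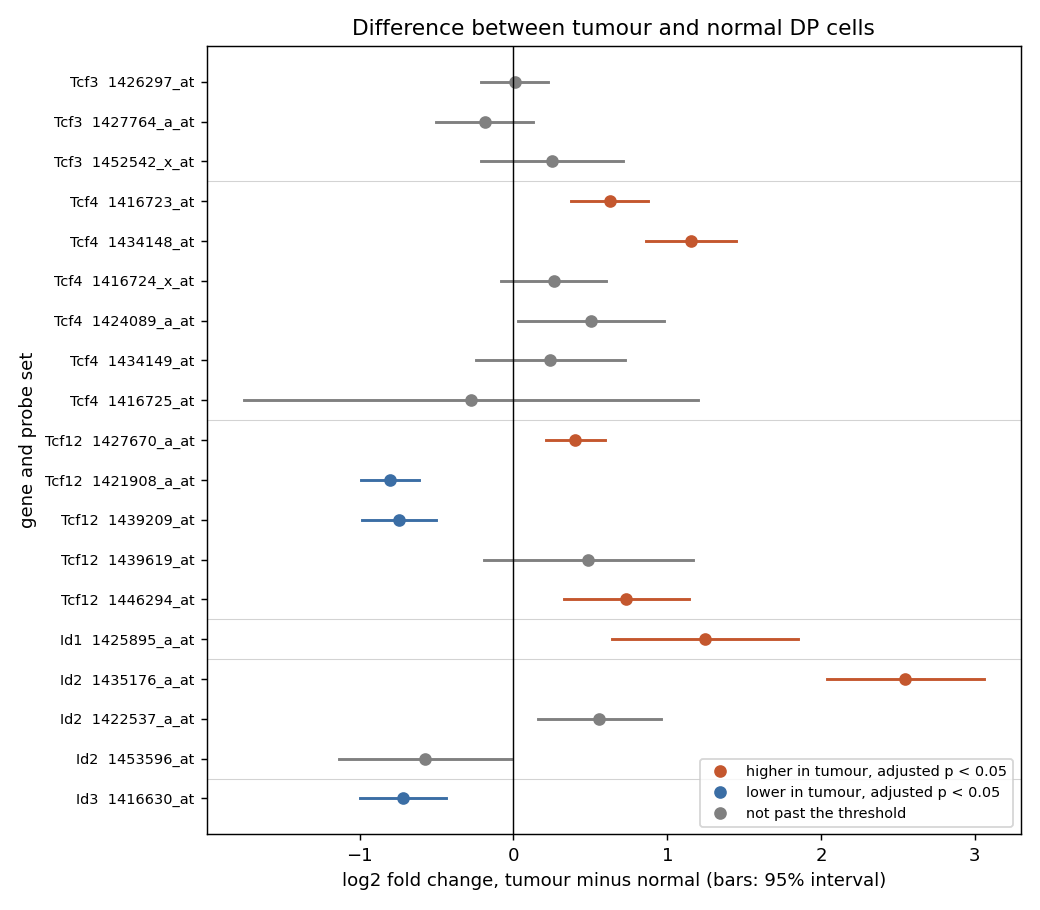
Log2 fold change of tumour over normal DP cells (x axis) for the 19 probe sets (rows), with 95% intervals from limma's moderated variance as bars. Orange marks the 6 probe sets that rose, blue the 3 that fell and grey the 10 that did not pass, and the Tcf12 rows fall on both sides of 0.

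Id1, an Id protein known as a target of BMP signals, gave 32.53 and 34.08 on the normal arrays and 80.47 and 77.52 on the tumour arrays. All 4 values were above background, though not far above it in normal cells, and the groups were well apart. The rise was 1.25 ± 0.27 (limma adjusted p = 0.00756), a 2.37-fold difference. The call ended without normal replicate 1 (1.21, adjusted p = 0.0532) and with spike scaling (0.65, adjusted p = 0.110). When 1 probe set stood for each gene, Id1 was the 1 member that passed with limma's default prior (adjusted p = 0.0469), where 6.38% of 18193 genes passed.

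Id2, an Id protein of innate lymphoid and myeloid lineages, showed the largest difference among the 19 probe sets. On 1435176_a_at the normal arrays gave 107.87 and 178.84 and the tumour arrays 706.45 and 935.17. Both tumour arrays lay far above both normal ones, and the spread within normal cells was wide. The rise of 2.55 ± 0.23 was a 5.85-fold difference (limma adjusted p = 3.09e-05), and it was 1.95 with spike scaling. Its second probe set, 1422537_a_at, gave 201.58 and 145.91 against 266.75 and 239.33, with no overlap. That difference of 0.56 ± 0.18 just missed the threshold (limma adjusted p = 0.0512) and passed under 7 of 14 alternatives. The third, 1453596_at, gave 70.5 and 87.12 against 50.78 and 54.49, lower in both tumour arrays. It read -0.58 ± 0.25 (limma adjusted p = 0.145).

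The Id2 probe sets thus gave unlike sizes. Within an array, 1435176_a_at minus 1422537_a_at was -0.90 and 0.29 (log2) in normal cells and 1.41 and 1.97 in tumour cells, so the probe sets changed unequally by 1.99 in a pair chosen after its values were seen. The part of the 3′ to 5′ ratios or of transcript forms in this difference was not tested. Cell types in which Id2 is known were set beside the Id2 values. Over all genes, each on its most intense probe set, 16.3% rose and 11.7% fell. Of 10 macrophage markers, 8 rose and 0 fell, and their summed intensity was 103.74 and 144.6 in normal arrays and 2027.5 and 2209.6 in tumour arrays. Of these 10, 5 did not exceed background on either normal array, among them C1qa and C1qc, both complement subunits. The C1qc call ended without tumour replicate 2. That of Adgre1, another of the 8, ended without normal replicate 1, tumour replicate 1 or tumour replicate 2 (1.07 to 2.30 over all 4 such fits). It also ended with spike scaling (1.08). Of 7 neutrophil markers, 7 rose, with sums of 177.6 and 223.82 against 2098.1 and 2180.7. Among them, Camp and Ltf each lost the call without tumour replicate 1 or tumour replicate 2. Over the 4 fits that left out 1 array, Camp read 2.05 to 4.78 and Ltf 4.59 to 5.55. Of 7 natural killer and innate lymphoid markers, 3 rose and 0 fell, with sums of 1139 and 1147.6 against 5348.5 and 5374.2. Gzma, a granzyme, carried most of these sums, and the other 6 genes summed to 104.84 and 113.08 against 318.36 and 333.72. Klrd1, a receptor of these cells and 1 of the 3, lost its call in 3 of the 4 fits that left out 1 array, those without normal replicate 1, tumour replicate 1 or tumour replicate 2 (1.21 to 2.18 over all 4). Ncr1, which defines natural killer cells, was at or below background on all 4 arrays. The part of these cells in the Id2 values was not tested.

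**Figure D3:**
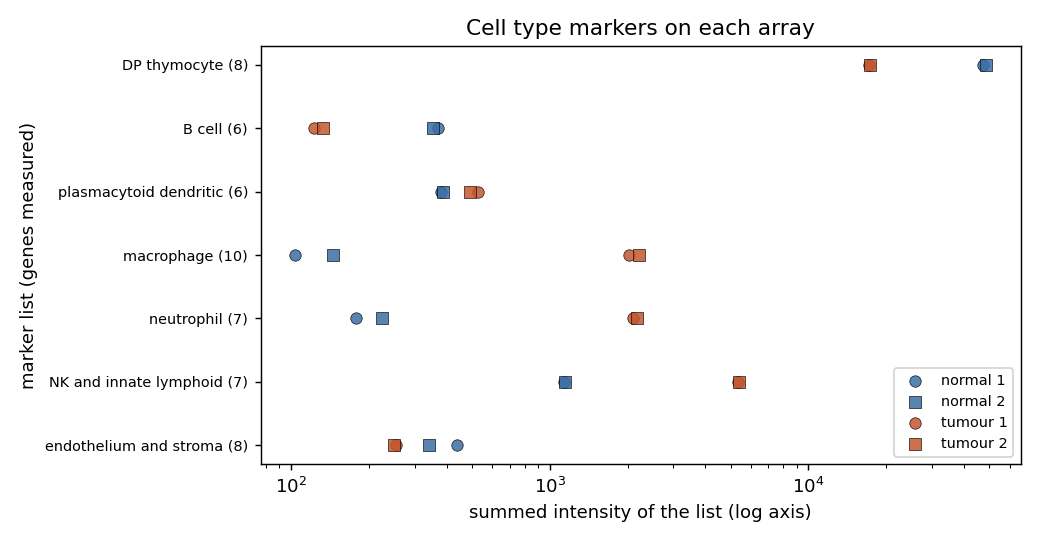
Summed intensity (x axis, log scale) of the measured genes of each cell type marker list (rows, number of genes in brackets) on the 2 normal (blue) and 2 tumour (orange) arrays. The macrophage sum runs from 103.74 to 144.6 in normal and from 2027.5 to 2209.6 in tumour arrays, and the DP thymocyte sum is lower in both tumour arrays.

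Id3, the Id protein that limits E proteins after T-cell receptor signals, had 1 probe set. It gave 1276.88 and 982.67 in normal cells and 688.2 and 673.32 in tumour cells. Both tumour arrays were lower than both normal ones and almost equal to each other. The fall was 0.72 ± 0.12 (limma adjusted p = 0.00203), a 1.65-fold difference, and it kept its call when any single array was left out (-0.91 to -0.53).

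Id2 on its most intense probe set and Id3 thus moved in opposite directions on the same arrays. Of the other Id2 probe sets, 1422537_a_at read 0.56 and 1453596_at read -0.58, the direction of Id3, and neither passed. The log2 intensity of Id2 (1435176_a_at) minus that of Id3 was -3.57 and -2.46 on the normal arrays and 0.04 and 0.47 on the tumour arrays. That is an unequal change of 3.27 with no overlap, free of any scaling of whole arrays. The part of the 3′ to 5′ ratios in it was not tested. Against Tcf3 on 1426297_at, the within-array change was 2.54 for Id2, 1.24 for Id1, 0.62 for Tcf4 and -0.73 for Id3. For none of these pairs, chosen after their values were seen, can an exact permutation test go below p = 0.333.

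The genes whose centred log2 values over the 4 arrays lay closest to each member were found among the 6259 or 6260 other genes whose mean log2 level reached 7. For Id3 they were Akap8l, Pecam1 and Mnat1, at Euclidean distances of 0.0353 to 0.0829, and for Id1 they were Sumo3, Dpp4 and Fam117b (0.0387 to 0.0532). For Id2 the closest were Zcchc2, Ybx3 and Ampd2, farther away at 0.317 to 0.331. The closest to Tcf3 were Tiprl, Cstf1 and Tk1, to Tcf4 Nup210, Nelfe and Tap1, and to Tcf12 on its most intense probe set Bpnt2, Nt5m and Yaf2. With 4 arrays many genes share a shape, so these are descriptions of likeness.

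Genes around the E and Id proteins were counted on their most intense probe set, where 16.3% of 18193 genes rose and 11.7% fell and the median of all genes was 0.09. Of 14 genes that encode partners of E proteins and their T-ALL oncogene complex, 1 rose and 1 fell, with a median of -0.11. Of the 14, 6 were at or below background on all 4 arrays, and only 4 exceeded it on both normal arrays. The counts and the median therefore rest in part on genes too dim to read. Lmo4, a LIM-only adaptor, went from 710.48 and 742.38 to 1527.3 and 1415.43, a rise of 1.02 ± 0.09 (limma adjusted p = 2.62e-05). Ldb1, the LIM-domain binding protein of that complex, fell by 0.55 ± 0.13 (limma adjusted p = 0.0112), a call that ended without normal replicate 1, normal replicate 2 or tumour replicate 2 (-0.68 to -0.43 over the 4 fits that left out 1 array). Tal1, the bHLH oncogene that pairs with E proteins in T-ALL, and Tal2 and Id4 were at or below background on all 4 arrays. These last genes were named after their values were seen.

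Of 15 measured thymocyte genes known to respond to E proteins, 8 rose and 7 fell, so all 15 passed and the list has no single direction. Of these calls, Cdkn1a, a cell cycle inhibitor (1.16), lost its own without normal replicate 1, normal replicate 2 or tumour replicate 1, and Cxcr4, a chemokine receptor (-0.39), without tumour replicate 1. By the naming rule, Il7r, the interleukin 7 receptor, rose by 2.69 ± 0.13, Socs3, a cytokine signal inhibitor, by 2.68 ± 0.14 and Notch1 by 2.62 ± 0.07 (limma adjusted p of 4.48e-08 to 1.44e-06). Hes1, a Notch-induced repressor, did not exceed background on either normal array and was at least 34.8-fold higher in tumour cells. Several of these, such as Hes1, are also known Notch targets, and the model over-expresses Notch1-IC. Whether the Notch1 probe sets read the over-expressed Notch1-IC itself was not tested. Other members, named after their values were seen, split in the same way. Rag1, a subunit of the recombinase, gave 10284.45 and 12144.15 in normal cells and 5577.95 and 5805.7 in tumour cells and fell by 0.97 ± 0.07. Gfi1, a repressor induced by E2A, fell by 0.73 ± 0.11, and Cdk6, a cell cycle kinase that E2A is known to repress, rose by 2.10 ± 0.09. Ptcra, which E2A and HEB are known to activate, rose by 1.72 ± 0.08.

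Among 14 genes that feed signals to the Id genes, 6 rose and 2 fell (median 0.40), or 3 and 5 with spike scaling. The calls of Smad4, Tgfbr1 and Tgfbr2, signal carriers and receptors of the TGF-beta family, were each lost in 3 or 4 of the 4 fits that left out 1 array. The BMP type II receptor Bmpr2 gave 114.96 and 103.67 in normal cells and 592.65 and 594.06 in tumour cells, a rise of 2.44 ± 0.13 (limma adjusted p = 1.51e-06). Acvr1, a type I receptor of the same family, did not exceed background on either normal array on its most intense probe set and was at least 6.08-fold higher, though another of its 3 probe sets read -1.78. Smad3, a TGF-beta signal carrier, rose by 1.65 ± 0.09. Egr2, an Egr factor downstream of the T-cell receptor, gave 261.52 and 222.06 against 73.92 and 69.8 and fell by 1.75 ± 0.18 (limma adjusted p = 7.33e-05). Egr1 and Egr3, named after their values were seen, differed by 0.024 ± 0.070 and 0.39 ± 0.22 and did not pass.

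Of 8 genes for the turnover of E and Id proteins, 4 rose and 2 fell (median 0.40), but with spike scaling 0 rose and 4 fell. The rises of Cul1, a ligase scaffold, and Usp1, a deubiquitinase, were each lost in 3 of the 4 fits that left out 1 array. Fzr1, an activator of the ubiquitin ligase that degrades Id2, fell by 0.99 ± 0.16, Skp1 fell by 0.80 ± 0.06 and Huwe1, a ubiquitin ligase, rose by 0.69 ± 0.11 on its brightest probe set, with its 5 probe sets running from -1.34 to 2.89 and its call lost with spike scaling (0.085). Skp2, the ligase subunit linked to E2A turnover under Notch, rose by 0.86 ± 0.15 where it was brightest, but another of its 6 fell by 1.98, and the rise lost its call with spike scaling (0.26). Of 7 other repressors that bind E-boxes, 2 rose and 1 fell (median 0.73). That median is the value of 1 gene near background, with an SE of 1.11, that did not pass. Only 2 of the 7 exceeded background on both normal arrays. Bhlhe40 did not exceed background on either normal array and was at least 7.37-fold higher in tumour cells. Zeb1 gave 1067.4 and 993.68 against 608.62 and 621.18 and fell by 0.74 ± 0.09 (limma adjusted p = 0.000265), and Snai3 rose by 0.52 ± 0.16. The Snai3 call ended when any single array was left out and with spike scaling (-0.080), and its other probe set read -2.39.

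**Figure D4:**
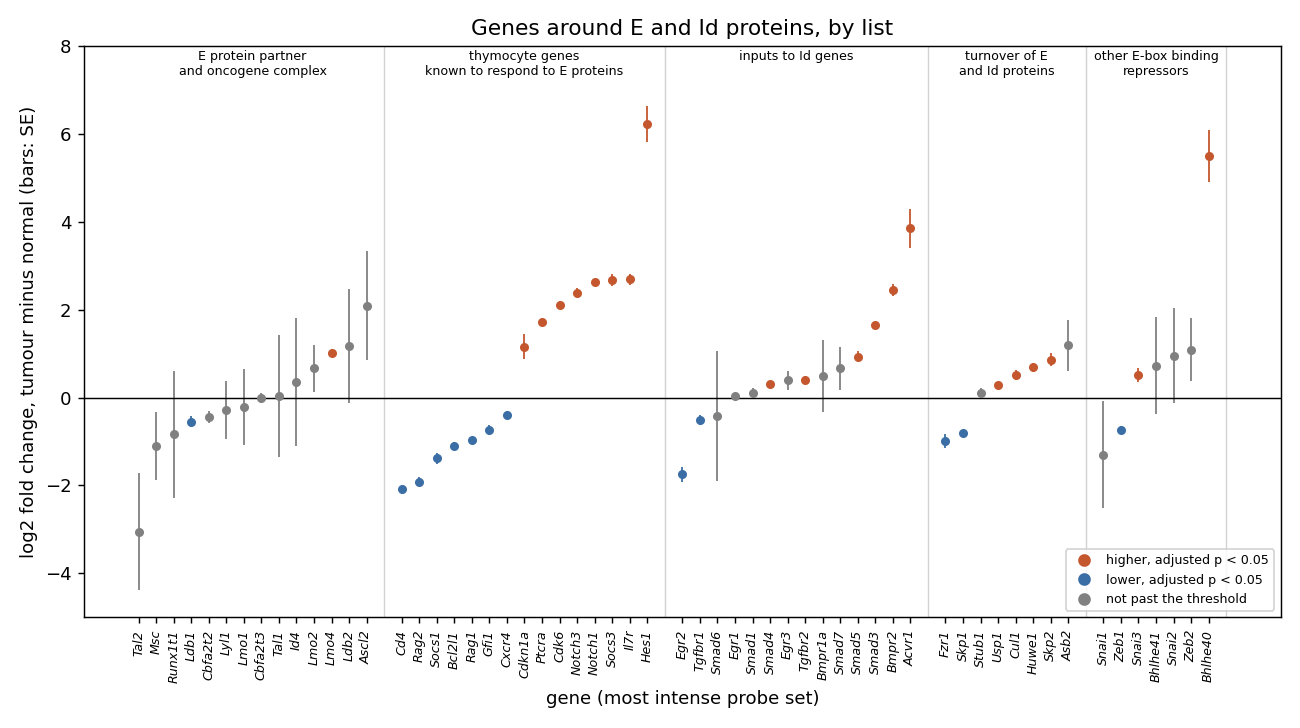
Log2 fold change of tumour over normal DP cells (y axis, bars show SE) for the measured genes of 5 lists around the E and Id proteins (x axis, most intense probe set of each gene). Orange genes rose, blue genes fell and grey genes did not pass, and in the list of genes known to respond to E proteins 8 of 15 lie above and 7 below 0.

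The DP label was checked on 8 measured markers, of which 6 fell and 1 rose (Ptcra, 1.72 ± 0.08). All 8 lay above background on all 4 arrays. Their summed intensity was 47109 and 48573 in normal arrays and 17156 and 17228 in tumour arrays. Over all genes on their most intense probe set, 16.3% rose and 11.7% fell. Of 8 endothelial, stromal and epithelial markers, 0 rose and 2 fell (Epcam, -1.76 ± 0.29, and Pecam1, -0.76 ± 0.17). Their sums were 437.1 and 341.1 against 253.48 and 249.73. Pecam1 carried most of these sums, and the other 7 genes summed to 135.07 and 112.18 against 97.99 and 94.21. Of the 8, 5 did not exceed background on either normal array. The Epcam call ended without normal replicate 2 (adjusted p = 0.0513), and the Pecam1 call without normal replicate 1, tumour replicate 1 or tumour replicate 2 (adjusted p up to 0.103). The endothelial receptor Kdr was at or below background on all 4 arrays. These counts were made beside the Id1 and Id3 values, and their part in them was not tested.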

How the data were processed

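Per the labels' protocols, RNA was amplified from the 3′ end and labelled with biotin. Expression was read on Affymetrix Mouse 430 2.0 arrays. The authors deposited 1 linear intensity per probe set and array, from 0.08 to 19270.22. The summary method is RMA per the submitters' processing notes (version not stated), but values below 1 are unusual for it, so the method is unsettled. Arrays already shared nearly 1 distribution. Log2 was taken here with no offset or filter, and 64 control probe sets were left out of the tests.

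Groups came from the titles. The sample type label describes all 4 as tumour and goes against the other labels of the 2 normal ones. Limma 3.58.1 in R 4.3.3 was fitted on all 4 arrays with no covariate, with the trend and robust prior, since spread depends on level: the median replicate SD (log2) was 1.31 among the dimmest 25% of probe sets and 0.102 among the brightest 25%. In simulated data for these 45037 probe sets, with 50 of them changed at each of 4 sizes, this test found 44% of log2 changes of 0.5 and 100% of changes of 1. Of its 184 calls over all sizes, 12 (6.52%) were false, above the threshold of 5%, and the default prior found 0%. Changes were placed only in probe sets with a mean log2 level of at least 7, so these shares do not cover dimmer members. The simulated noise followed level alone, as the trend prior assumes, so the setting favours that prior over the default. Members, lists, prior and alternatives were chosen with earlier results of these data known.

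Symbols came from the GEO platform annotation, for 34945 probe sets with 1 symbol. All 6 members matched the RefSeq table of GRCm38.p6. A list gene was read on its probe set with the highest mean level. Some genes of the lists are not reported here. Named genes were all members, up to 4 called genes of each list with the largest change, and the 3 closest genes by pattern. Siglech, Cd79a, Pax5, Ncr1 and Kdr were named after their values were seen. So were the genes named only for a lost call (Adgre1, Cdkn1a, Cxcr4, Smad4, Tgfbr1, Tgfbr2, Cul1 and Usp1). Where a group did not exceed background on either array, "at least N-fold" sets the other group's mean log2 against the dim group's values raised to background. With 1 array of a group left out, limma takes the spread from the other group, so the lone array is assumed to vary as that group does.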

Additional observations from a re-analysis of the deposited data

How the results depend on the processing

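With the default prior over all probe sets, 0 probe sets rose or fell among all, among members and among the E protein response genes, and Tcf4 (0.62), Tcf12 (0.40), Id1 (1.25), Id2 (2.55) and Id3 (-0.72) on their most intense probe sets lost their calls. With 1 probe set per gene, the trend and robust prior gave 3156 higher and 2251 lower genes and 1 lower member. The default prior then gave 759 higher and 401 lower, 1 higher member and 0 lower, and 3 lower response genes, and Tcf4 (0.62), Tcf12 (0.40), Id2 (2.55, adjusted p = 0.0598) and Id3 (-0.72) lost their calls. These 2 priors differ only in how variances are pooled. Spike scaling gave 2074 higher and 11539 lower probe sets, so that 15.2% of calls were higher against 49.5%, with 2 higher and 6 lower members. It turned Tcf3 1426297_at to -0.59 and 1452542_x_at to -0.35, Tcf4 1416724_x_at to -0.34, 1424089_a_at to -0.10 and 1434149_at to -0.36, Tcf12 1427670_a_at to -0.20 and 1439619_at to -0.11, and Id2 1422537_a_at to -0.042, and ended the calls of Tcf4 1416723_at (0.024) and Id1 (0.65).

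Leaving out 1 array at a time left 3325 to 3983 higher and 3184 to 4386 lower probe sets, with 4 to 6 higher and 3 lower members. Id2 ranged over 2.18 to 2.91 and Tcf4 over 0.56 to 0.69, both with their calls, Tcf12 over 0.29 to 0.52 and Id1 over 1.21 to 1.28. Tcf3 read -0.054 to 0.069. Tcf12 1439619_at ranged over -0.069 (without normal replicate 1) to 1.04 and Tcf4 1416725_at over -0.55 to 0.0007 (without normal replicate 2). With the replicate block, 6125 probe sets rose and 6319 fell, and 9 members rose and 3 fell. Same-numbered arrays share only a number: with 2 pairs in all, their deviations correlated at r = 0.013 over all probe sets and at 0.101 over those above background on all 4 arrays. Median subtraction, renewed quantile normalization, an offset of 16, the 30th and 50th percentile filters, values raised to background, and leaving out _s_at and _x_at probe sets kept all 9 member calls. The threshold of 0.01 kept 8.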
